A study of Mus musculus with 18 samples.

Results

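The nuclear and cytoplasmic circRNA lists of XPO4 KO cells, edited in the gene of an export receptor, were compared with each other. The question was where circRNAs lay in these cells. The lists came from 4 circRNA-seq libraries of the series' 18, 2 of nuclear and 2 of cytoplasmic RNA, and were taken by their sample titles. Together the 4 libraries listed 10104 circRNAs of the 16171 listed in the series. The cells were NIH/3T3, an established mouse embryonic fibroblast line, in which CRISPR-Cas9 had edited Xpo4, the gene of exportin 4. The labels gave no age, agent or time, and the KO line carries its edit alike in both copies of the gene. Cells were lysed with NP-40, the cytoplasm was drawn off, and the nuclear pellet was washed with deoxycholate and Tween 40 before RNA was extracted. The RNA was then digested with RNase R, an exonuclease that removes linear RNA and leaves circles. WT cells of the same line, unedited and fractionated in the same way, gave 2 libraries of each fraction, and KO cells gave 2 whole-cell libraries. Nothing in the sources says that the replicates were separate cultures, so p-values measure the spread between these samples, which may be technical.

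A circRNA forms when the spliceosome joins the end of an exon back to the start of the same or an earlier exon. The resulting backsplice junction is absent from the linear mRNA, so reads that cross it count the circle alone. Most exonic circRNAs are found in the cytoplasm, and they reach it by export through the nuclear pore. Circles that keep an intron, and lariats left over from splicing, are known to stay in the nucleus. Exportin 4 is a RanGTP-dependent receptor of the importin beta family that carries proteins out of the nucleus.

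Each circRNA on which the results turn is identified by its backsplice junction, shown on the transcript strand from the mouse reference sequence of GRCm38. The last 15 bases of the circle are in lower case and the first 15, which follow them across the junction, are in capitals. CircNfix, circPvt1 and circHipk3 are shown because they were abundant single-exon circles, circAtxn2, circTcf25, circPtchd4 and circSnx27 because they had a higher nuclear share, and circDtnb because it had the lowest p among circles with a higher cytoplasmic share. The circle of a Nfat5 intron is shown as an example with ends off annotated exon edges.
circNfix (chr8:84771784-84772315, minus strand, exon 2): ttgtccacactccggGATGAGTTCCACCCG
circPvt1 (chr15:62107148-62107465, plus strand, exon 2): agctccctctaaaatGTCTGATTTTCTTAA
circHipk3 (chr2:104470749-104471847, minus strand, exon 2): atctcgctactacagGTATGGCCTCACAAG
circAtxn2 (chr5:121772667-121778105, plus strand, exons 6 to 8): tggccccaacactagATGCTTTTACTGACT
circTcf25 (chr8:123382527-123383443, plus strand, exons 3 and 4): atatgtggagcacagTCTAATGCAAGTGGC
circPtchd4 (chr17:42377160-42377640, plus strand, exon 2): ctttcttcgccatggGATGGGAGGAACAGT
circSnx27 (chr3:94561769-94562000, minus strand, exon 2): ggtgagaagtttgtgGAACGGCGTGAATGT
circDtnb (chr12:3617606-3648389, plus strand, exons 5 to 8): gagcattcctcttggTGAGGGCCGAGGCAA
circle in a Nfat5 intron (chr8:107334912-107335484, plus strand): tcttgaaattgacagCCCCCATATTTCATT

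The nuclear libraries were shallow. They held 3743 and 4383 junction reads on 1101 and 1101 circRNAs, against 50629 and 63335 reads on 8688 and 8725 circRNAs in the cytoplasm. Levels are therefore given as junction reads, or as RPM, reads scaled to a library total of 1000000 junction reads, and never as amounts per cell. In such bulk RNA, fewer cells with a circle and less of the circle per cell cannot be told apart. A single read was worth 267 and 228 RPM in the nuclear libraries and 19.8 and 15.8 in the cytoplasmic ones. Within a fraction, every circRNA was listed in at least 2 of the 4 libraries of both genotypes, and all 48 nuclear and 400 cytoplasmic circRNAs listed in exactly 2 were in both libraries of one genotype. A circRNA with reads in no more than 1 replicate of each genotype would then be missing from the lists. In KO, 1054 of 1148 nuclear and 7995 of 9418 cytoplasmic circRNAs were in both libraries. The others were in 1 KO library and in both WT libraries, so a KO listing also depended on WT. A circRNA without reads is therefore called not listed, and no limit from a count of 0 is given.

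The cytoplasmic replicates differed for abundant circRNAs. Of 67 with at least 50 reads on average, 60 had more reads in replicate 2 and 42 were over 2-fold apart in RPM. Of the same 67, 7 had read counts within 5% of each other although the library totals were 1.25-fold apart, circNfix with 682 and 685 reads among them. Over all listed circRNAs Spearman's rho between replicates was 0.801 in the cytoplasm (9418 circRNAs) and 0.459 in the nucleus (1148 circRNAs). The nuclear replicates varied no more than sampling noise on average, with a chi-square of 0.772 per circRNA, but single circles differed clearly, as circTcf25 did with 3 and 27 reads. The pair was kept as 2 samples. With few reads per circle and a list filtered for presence in both libraries of a genotype, this chi-square is a description alone.

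Few circRNAs were common to both fractions. Of 1148 nuclear circRNAs, 462 were also listed in the cytoplasm, which was 40.2% of the nuclear and 4.91% of the cytoplasmic list. Drawn down to the 3743 reads of the shallowest library, the cytoplasmic libraries would be expected to list 2650 and 2358 circRNAs, over double the 1101 and 1075 of the nuclear ones. The lists had been filtered at their own depths before, and drawing reads down does not undo this. In the nucleus 292 and 319 circRNAs held 50% of all reads, against 1635 and 1051 in the cytoplasm. The 10 most read circRNAs took 4.14% and 5.11% of nuclear reads and 4.03% and 6.17% of cytoplasmic reads, ranges that overlapped.

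Circles with both ends on exon edges of a single annotated transcript made up nearly the whole cytoplasmic list and part of the nuclear one. They took 70.2% and 63.1% of nuclear junction reads and 98.3% and 98.3% of cytoplasmic reads. The means were 66.7% ± 4.99 and 98.3% ± 0.00928 (SD, n = 2 each), and the groups did not overlap. The two-sided exact permutation test gave p = 0.333, the smallest that 2 libraries against 2 can give, as it did for every feature of this kind whose groups did not overlap. By number, 662 of 1148 nuclear circRNAs (57.7%) and 9278 of 9418 cytoplasmic circRNAs (98.5%) were of this class. In WT cells the shares were 59.8% and 54.0% for nuclear and 98.4% and 98.4% for cytoplasmic libraries.

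**Figure D1:**
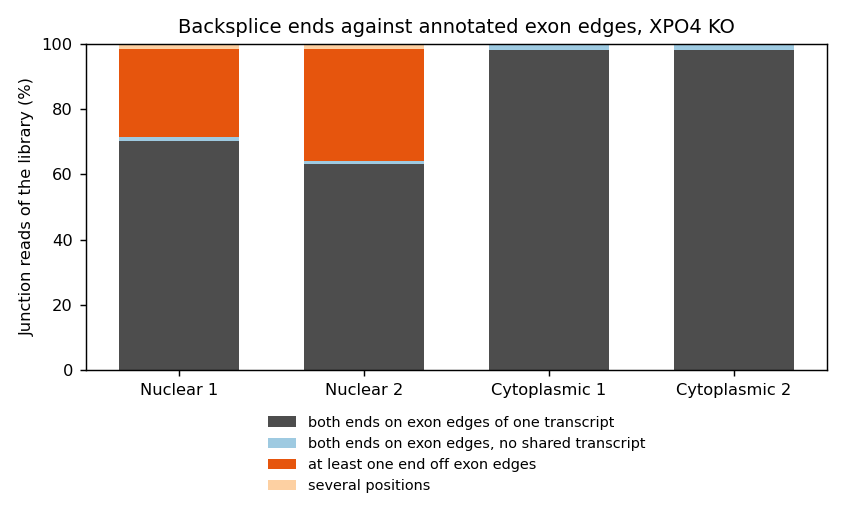
Share of junction reads in each XPO4 KO library (y axis, percent) by where the 2 ends of the circle fell on the annotation (colours). Ends off exon edges took 27.0% and 34.2% of nuclear reads and under 0.1% of cytoplasmic reads.

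At least one end lay off annotated exon edges for 468 nuclear circRNAs, and none of these was listed in a KO cytoplasmic or whole-cell library. They held 1010 and 1501 nuclear reads, 27.0% and 34.2% of all. The cytoplasmic lists held 4 such circles of their own. KO whole-cell lists, which also include the nucleus, had 0.0103% and 0.0199% of reads in the class. Whether the lists of the fractions were filtered by the same rule is not given in the sources used here, and a filter on annotated circles cannot be told apart from the fraction.

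Circles with an end off exon edges lay mainly inside introns or outside genes, and those were short. Of the 468, 222 (47.4%) fell inside an intron, with a median genomic span of 224 bp. A further 130 lay outside annotated genes with a median span of 213 bp, 63 ran from an exon into an intron of the gene, 36 lay within a single exon, and 17 had ends in different genes or outside genes. All carried the GT and AG dinucleotides at their ends that mark a splice donor and acceptor. The caller, find_circ, may have required these, so they are a description and no evidence of splicing. The strand of these dinucleotides was that of the host gene for 159 of 321 circles within genes (49.5%), and inside introns for 106 of 222 (47.7%). Of 299 circles whose gene had an mRNA value, 219 (73.2%) lay in genes at 1 CPM or more in KO mRNA-seq (counts scaled to a library total of 1000000, mean of 3 libraries), against 625 of 632 (98.9%) of nuclear circles on exon edges.

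Named examples of this class had few reads, all of them nuclear. The circle from an exon into an intron of Cbfb, which encodes the beta subunit of core-binding factor, had 10 and 8 reads. The circle in a Nfat5 intron shown above had 7 and 7 reads. Nfat5 encodes a transcription factor of the osmotic stress response. A circle inside an exon of Fn1, the fibronectin gene, had 6 and 7 reads, and one in an intron of Ctnna2, which encodes the neuronal alpha-catenin, had 6 and 9. Outside annotated genes, circles at chr12:109680764-109682347 and chr9:46555490-46555710 had 6 and 11 and 5 and 10 reads. The mitochondrial genome, whose genes have no introns, gave 2 entries. They lay in mt-Nd1 with 3 and 5 reads and in mt-Rnr1 with 2 and 5 reads.

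The nuclear entry with the highest mean RPM was one of 7 listed with several alternative positions. It lay in the Gm26917 locus of chromosome 17, beside the 18S ribosomal RNA pseudogene Rn18s-rs5, and had 30 and 32 nuclear reads and no cytoplasmic listing. Of the 7 entries, 2 carried the same nuclear reads as a single-position circle among their positions. They were an entry at Kat6b with 6 and 9 reads and one at Mndal with 9 and 8. Their single-position counterparts were listed in the cytoplasm with 64 and 211 reads (Kat6b) and 7 and 24 reads (chr1:173912814-173977437, for Mndal). For these 2 entries the same junction was thus listed in both fractions. The chromosome 1 junction joined exon edges of no common transcript, with ends in different genes or outside genes.

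Among circles on exon edges, nuclear reads came more from short circles. Circles of up to 300 nt spliced length took 23.6% and 23.1% of nuclear and 10.4% and 9.12% of cytoplasmic exon-edge reads, means of 23.3% ± 0.332 and 9.75% ± 0.899 (SD, n = 2). The difference was also present among the 453 such circRNAs listed in both fractions, with 17.9% and 18.7% against 11% and 7.03%. The KO whole-cell libraries, at 10.1% and 10.4%, were near the cytoplasmic ones. WT nuclear libraries had 30.2% and 28.3% and WT cytoplasmic ones 9.17% and 9.13%.

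Median length and exon number depended on which circles were counted. Over all exon-edge circles, the read-weighted median spliced length was 391 and 412 nt in the nucleus and 466 and 449 nt in the cytoplasm, and the mean number of exons was 3.18 and 3.19 against 3.78 and 3.56. Both differences turned round among the 453 circRNAs listed in both fractions. There the median was 412 and 427 nt in the nucleus against 406 and 400 nt, and the mean number of exons 3.1 and 3.13 against 2.51 and 2.65. Without circNfix and circPvt1, the lengths of the fractions overlapped, at 412 and 424 nt against 399 and 412 nt, while the exon numbers did not, at 3.13 and 3.21 against 2.79 and 2.91. Single-exon circles behaved likewise. They took 12.5% and 14.7% of nuclear and 7.83% and 9.71% of cytoplasmic reads over all exon-edge circles, 13.3% and 16.1% against 28.1% and 24.1% among those listed in both, and 12.1% and 12.8% against 14.9% and 12.2% without circNfix and circPvt1.

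**Figure D2:**
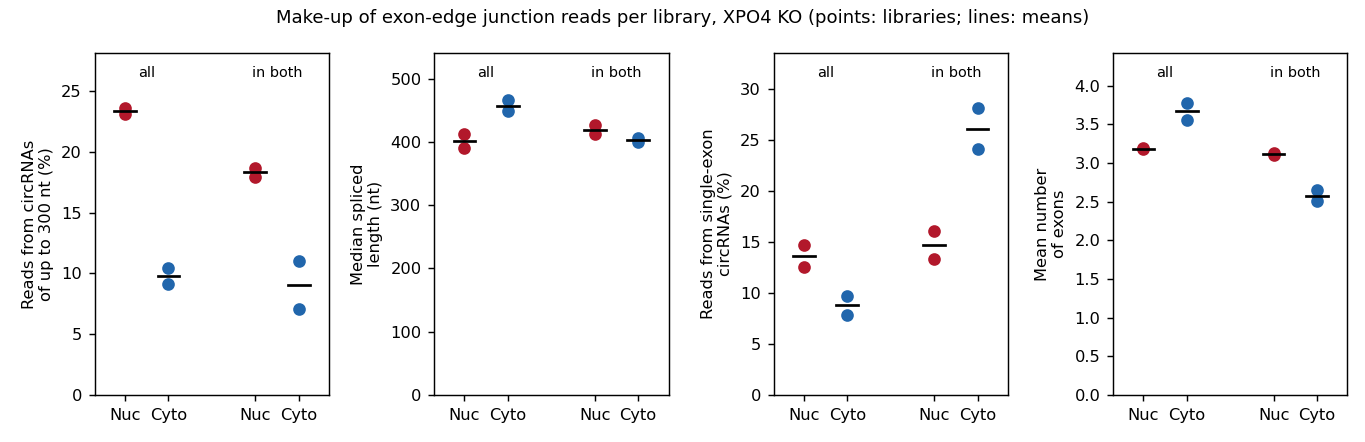
The 4 read-weighted features of exon-edge circRNAs (y axes, each from 0) in the nuclear (red) and cytoplasmic (blue) XPO4 KO libraries, for all circRNAs and for the 453 listed in both fractions. The share of circles of up to 300 nt was higher in the nucleus in both sets, while median length, single-exon share and exon number changed direction.

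Base composition differed slightly and position in the gene did not separate the fractions. The GC content of the spliced sequence averaged 49.9% and 49.9% over nuclear and 48.6% and 48.4% over cytoplasmic reads, and overlapped among circles listed in both fractions. Circles that began at exon 2, the first exon with an upstream splice acceptor, took 36.7% and 39.1% of nuclear and 34.3% and 39.7% of cytoplasmic reads. Circles holding the start codon took 18.4% and 19.7% against 16.3% and 18.5%. The upstream intron had a read-weighted median of 10112 and 10711 bp for nuclear and 8229 and 10331 bp for cytoplasmic reads. All 3 ranges overlapped. The downstream intron was longer for nuclear reads, with 8679 and 9532 bp against 6407 and 8079 bp.

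Each circRNA was then tested for its share of the library in nucleus against cytoplasm. edgeR's quasi-likelihood test, scaled by the total of junction reads, found 228 of 4359 tested circRNAs (5.23%) with a higher nuclear share and 8 (0.184%) with a higher cytoplasmic share at a Benjamini-Hochberg adjusted p under 0.05. The 4359 had at least 10 reads over the 4 libraries. The split rested on depth and scaling. Of the circRNAs in the cytoplasmic lists, 93.4% had a mean level below the 248 RPM of a single nuclear read, so any of these with a read in both nuclear libraries had the higher mean level in the nucleus. Of the 462 circRNAs in both lists, 284 were of this kind, and 356 had both nuclear libraries above both cytoplasmic ones. For the tested circRNAs the latter was so for 9.68%, and the opposite for 88.1%. Scaling by trimmed mean of M values (TMM) in place of the total gave 208 and 3821 calls. All 208 of its calls with a higher nuclear share were among the 228. DESeq2 scaled by the total gave 232 and 8 calls. Without nuclear replicate 1 or 2, 19 and 23 circRNAs had a higher nuclear share and none a higher cytoplasmic one, and DESeq2 with its own size factors gave 98 and 130.

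**Figure D3:**
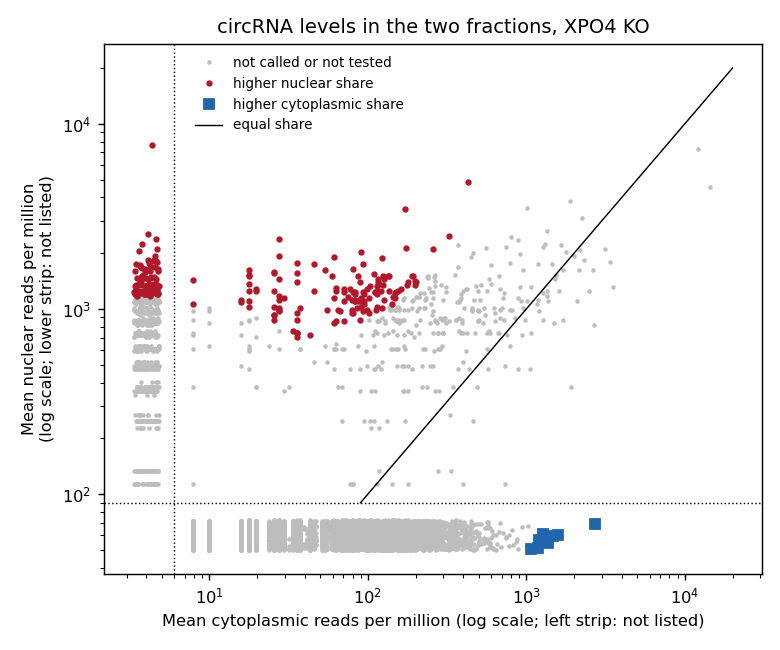
Mean RPM of each of 10104 circRNAs in the cytoplasmic (x axis) and nuclear (y axis) XPO4 KO libraries, both on log scales, with circRNAs not listed in a fraction placed in the strips outside the dotted lines. The 228 circRNAs called higher in the nucleus (red) lie at low cytoplasmic levels, and the 8 called higher in the cytoplasm (blue) are not listed in the nucleus.

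The 228 circRNAs with a higher nuclear share fell into unlike groups. On exon edges of one transcript were 129 listed in both fractions and 44 not listed in the cytoplasm. Another 48 had an end off exon edges, 4 were entries with several positions, among them the 2 at Kat6b and Mndal whose junctions were listed in both fractions, and 3 had exon edges of no common transcript. Those without cytoplasmic reads passed the minimum of 10 reads through the nucleus alone, and so had to differ, and their calls are no support for a higher nuclear share. The 129 had a median of 10 nuclear reads over both libraries and of 9 cytoplasmic ones, with a median spliced length of 418 nt, 3 exons and 8 single-exon circles. With this median, many of the 129 also reached the minimum of 10 reads through the nucleus alone. The 4245 tested circles on exon edges had a median of 460 nt and 3 exons, and 5.21% were single-exon.

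CircAtxn2 and circTcf25 were the most read of the circles with a higher nuclear share that were listed in both fractions. CircAtxn2, exons 6 to 8 of the gene of the RNA-binding protein ataxin-2, had 20 and 19 nuclear reads and 6 and 47 cytoplasmic reads. Both nuclear libraries stood above both cytoplasmic ones in RPM, with a log2 difference of 3.46 ± 1.02 (SE, n = 2) and an adjusted p = 0.0158 in edgeR. With TMM the adjusted p was 0.132. CircTcf25, exons 3 and 4 of a transcription factor gene, had 3 and 27 nuclear and 11 and 8 cytoplasmic reads, and its log2 difference was 4.34 ± 0.99 (adjusted p = 0.000375, edgeR). Its nuclear reads came mostly from replicate 2. With a replicate block in edgeR neither circle passed (adjusted p = 0.125 for circAtxn2 and 0.199 for circTcf25). With DESeq2 and its own size factors neither circle passed (adjusted p = 0.174 for circAtxn2 and 0.0946 for circTcf25). With DESeq2 scaled by the total both passed (adjusted p = 0.000386 for circAtxn2 and 4.6e-05 for circTcf25).

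Many others rested on 1 or 2 cytoplasmic reads per library. Those named here reached the minimum of reads for the test through the nucleus alone and were chosen for their small p. Their p-values are therefore a description and no support for a higher nuclear share. CircTtll5, from the gene of a tubulin glutamylase, had 11 and 8 nuclear reads against 2 and 1 in the cytoplasm, a log2 difference of 6.27 ± 1.05 (adjusted p = 2.12e-07, edgeR). CircUap1, from the gene of an enzyme that makes UDP-N-acetylglucosamine, had 11 and 4 reads against 2 and 1. CircWdr78, from a gene of a dynein subunit of motile cilia, had 7 and 6 against 1 and 1. CircTraf3, from the gene of an adaptor of TNF receptors, had 8 and 4 against 1 and 1. All 3 passed in edgeR and in DESeq2 scaled by the total. They did not pass in DESeq2 with its own size factors, where the adjusted p lay between 0.0515 and 0.0579. In each the nuclear libraries lay above the cytoplasmic ones. The KO whole-cell libraries listed circUap1 with 8 and 11 reads, circWdr78 with 5 and 7 and circTraf3 with 4 and 3, but did not list circTtll5.

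Circles on exon edges that were not listed in the cytoplasm were led by circPtchd4 and circSnx27. CircPtchd4, exon 2 of a gene of the Patched domain family, had 8 and 13 nuclear reads and was listed in neither cytoplasmic nor whole-cell KO libraries. CircSnx27, exon 2 of the gene of an endosomal sorting nexin, had 12 and 7 nuclear reads, with 5 and 3 in the whole-cell libraries. CircNcor1, exons 20 and 21 of the nuclear receptor corepressor gene, had 11 and 4, and circTulp4, exons 2 and 3 of a Tubby-like gene, had 7 and 8. All 4 were listed in the nucleus alone of the 2 fractions, and their values are given as a description. Of all 209 nuclear exon-edge circles that were missing from the cytoplasmic lists, 71 (34.0%) were in a KO whole-cell list, against 408 of 453 (90.1%) of those in both fractions and 4184 of 8825 (47.4%) of those in the cytoplasmic lists alone.

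The 8 circRNAs with a higher cytoplasmic share were all exon-edge circles without a nuclear listing, and all were in a KO whole-cell list. They entered the test through their cytoplasmic reads alone, which fixed the direction. CircDtnb, exons 5 to 8 of the gene of the cytoskeletal protein beta-dystrobrevin, had 103 and 214 cytoplasmic reads (adjusted p = 0.0101, edgeR), and 183 and 56 in the whole-cell libraries. CircDcbld2, from the gene of a transmembrane receptor-like protein, had 29 and 164 reads and circUck2, from the gene of a uridine-cytidine kinase, 30 and 148. CircCnot6l, from a deadenylase gene of the CCR4-NOT complex, had 26 and 142, and circFryl 73 and 69. CircNfkb1, exons 2 to 6 of the gene of the NF-kappa-B subunit p105, had 46 and 95, circTent4a, from a gene of a non-canonical poly(A) polymerase, 34 and 107, and circZmym4, from a zinc finger gene, 17 and 114. Their adjusted p lay between 0.0101 and 0.0495. Of the 8, 6 began at exon 2 and none was single-exon, with a median length of 380.5 nt. WT nuclear libraries did not list them either. On this side no circRNA was called without either nuclear library, and 123 and 48 were called without cytoplasmic replicate 1 and 2.

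**Figure D4:**
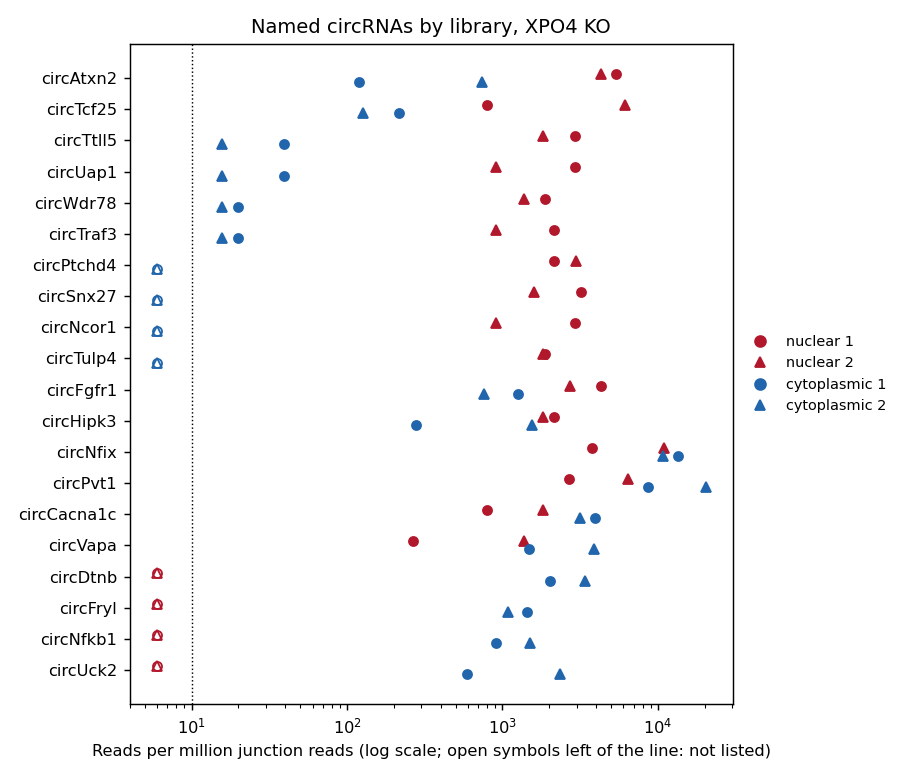
RPM (x axis, log scale) of 20 named exon-edge circRNAs in each nuclear (red) and cytoplasmic (blue) XPO4 KO library, with replicates 1 and 2 as circles and triangles and open symbols where the circRNA was not listed. CircAtxn2 and circHipk3 lay higher in both nuclear libraries, circPvt1 and circVapa in both cytoplasmic ones, and circNfix overlapped.

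The most abundant circRNAs were mostly listed in both fractions. The shares of those named here, all listed in both fractions, did not pass in edgeR scaled by the total. CircDtnb, given above and not listed in the nucleus, was also among the 10 with the highest cytoplasmic share, and it did pass. Many of the most abundant circRNAs passed on the cytoplasmic side in DESeq2 with its own size factors. CircNfix, exon 2 of the gene of a nuclear factor I transcription factor, had 14 and 48 nuclear and 682 and 685 cytoplasmic reads. Its mean share in the cytoplasm was 12143 ± 1877 RPM (SD, n = 2), and the log2 difference of nucleus over cytoplasm was -0.72 ± 1.53 (adjusted p = 0.646, edgeR). CircPvt1, exon 2 of a long noncoding RNA next to Myc, had 10 and 28 nuclear and 436 and 1282 cytoplasmic reads, with both nuclear shares below both cytoplasmic ones but no call (log2 -1.66 ± 1.57, adjusted p = 0.298, edgeR). CircCacna1c, exons 2 and 3 of the gene of an L-type calcium channel, had 3 and 8 against 199 and 200. CircVapa, from the gene of an endoplasmic reticulum contact protein, had 1 and 6 against 75 and 245. With DESeq2 and its own size factors, all 4 had a higher cytoplasmic share (adjusted p = 0.0216 for circNfix, 0.00566 for circPvt1, 0.0161 for circCacna1c and 0.0199 for circVapa). With DESeq2 scaled by the total, none of the 4 passed (adjusted p between 0.0636 and 0.335). Others of the most read circles gave the same split between scalings. CircNsd2, from a histone methyltransferase gene, held exons 1 and 2 of an annotated transcript with 9 exons. It had 9 and 8 nuclear against 76 and 305 cytoplasmic reads. CircAlg12, from the gene of a mannosyltransferase of the endoplasmic reticulum, had 7 and 6 against 72 and 244, and circMettl9, from the gene of a histidine methyltransferase, had 6 and 4 against 48 and 253. CircBnc2 had 4 and 11 against 139 and 256. The adjusted p of these 4 circles lay between 0.361 and 0.599 in edgeR and between 0.334 and 0.529 in DESeq2 scaled by the total. In DESeq2 with its own size factors it lay between 0.0216 and 0.0363, with a higher cytoplasmic share.

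The most read nuclear circles on exon edges included several more that were also abundant in the cytoplasm. CircZfp516, exon 2 of a zinc finger gene, had 16 and 15 nuclear and 62 and 160 cytoplasmic reads. CircCped1 had 13 and 12 against 76 and 190, and circFbxl17, from the gene of an F-box protein of a ubiquitin ligase, had 12 and 9 against 13 and 155. None of the 3 passed the test (adjusted p = 0.326, 0.666 and 0.335 in edgeR), and the cytoplasmic replicates of circFbxl17 were far apart. CircFgfr1, exon 3 of a fibroblast growth factor receptor gene, had 16 and 12 against 64 and 48, both nuclear shares being higher without passing the test (log2 1.79 ± 0.97, adjusted p = 0.292, edgeR).

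A set chosen by a high whole-cell level, among exon-edge circRNAs listed in either fraction, gave a more even picture. Whole-cell circRNAs listed in neither fraction were left out. The percentages listed in the nucleus therefore hold for circRNAs of the fraction lists alone. At over 500 RPM in the KO whole-cell libraries were 143 such exon-edge circRNAs. They took 17.1% and 19.7% of nuclear and 10.6% and 19.95% of cytoplasmic exon-edge reads, which overlapped. Of the 143, 85 (59.4%) were listed in the nucleus. Both nuclear libraries lay above both cytoplasmic ones for 30, below for 65, and overlapped for 48. Of 139 tested, 1 had a higher nuclear and 8 a higher cytoplasmic share. Their median log2 difference was -0.584, and 0.459 for those listed in the nucleus. The median over all tested circRNAs, -4.96, cannot be set against it. Most of these were not listed in the nucleus, so the value depends on edgeR's prior count. With DESeq2 scaled by the total, the median over all tested circRNAs was -1.45. Among exon-edge circles listed in either fraction and at over 100 to 500 RPM in the whole-cell libraries, 12.6% of 1875 were listed in the nucleus. The 1875 took 34.8% and 34.6% of nuclear and 25.9% and 31.3% of cytoplasmic exon-edge reads. Exon-edge circles missing from the whole-cell lists took 24.4% and 24.7% of nuclear and 37.5% and 27.4% of cytoplasmic exon-edge reads. The nuclear circles with an end off exon edges, also missing from the whole-cell lists, held 27.0% and 34.2% of all nuclear junction reads.

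The circRNAs of hosts chosen by the study for imaging were read as follows. CircHipk3, exon 2 of the gene of a homeodomain-interacting kinase, is a widely studied circle. It had 8 and 8 nuclear and 14 and 98 cytoplasmic reads, a log2 difference of 1.11 ± 0.92 (adjusted p = 0.292, edgeR). Both nuclear libraries lay above both cytoplasmic ones in RPM. CircSpecc1, exons 8 to 12, had 18 and 21 cytoplasmic reads, and circWwc1, exons 18 and 19, had 10 and 10. Neither was listed in the nucleus and neither passed the test (adjusted p = 0.292 for both, edgeR). No circle of Adarb1, an RNA-editing enzyme gene, or of Xpo4 itself was listed in either fraction of KO cells.

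At the level of the host gene, the reads of its exon-edge circles were summed. Circles came from 3728 genes. Nuclear circles had 566 hosts and cytoplasmic circles 3668, of which 506 were common to both. A single circle was listed for 490 of the nuclear hosts (86.6%), while 1984 cytoplasmic hosts (54.1%) had 2 or more. Tasp1, the gene of the protease taspase 1, had 5 nuclear circles, and Zfp827, Gas2 and Afap1 had 4 each. Vps13b led the cytoplasm with 23 circles, of which 1 was nuclear, followed by Atp6v1h and Birc6 with 21 each. Of 410 nuclear hosts with 2 or more cytoplasmic circles, the most read circle was the same in both fractions for 165 (40.2%), and 116 of the 506 common hosts had no circle in common.

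Of 2546 host genes tested, 135 (5.3%) had a higher nuclear and 155 (6.09%) a higher cytoplasmic share (edgeR, adjusted p under 0.05). Of the 135, 123 were listed in both fractions. The other 12 entered the test through the nucleus alone, which fixed their direction. The 123 were led by Metap1d, the gene of a mitochondrial methionine aminopeptidase, with 12 and 7 nuclear against 2 and 0 cytoplasmic reads. Metap1d also reached the minimum of reads through the nucleus alone, so its call is a description. Afap1, an actin filament-associated protein gene, had 7 and 15 against 20 and 22 (log2 2.84 ± 0.6, adjusted p = 0.000171, edgeR). Of the 155, 151 had no nuclear circle. They entered the test through the cytoplasm alone, which fixed their direction, so their calls are a description. Birc6, the gene of a large inhibitor of apoptosis, had 82 and 86 cytoplasmic reads over 21 circles and none in the nucleus (adjusted p = 0.00311, edgeR). The 4 listed in both were Man2a1, Lrch3, Pvt1 and Paip2, of which Man2a1, a Golgi mannosidase gene, had 4 and 3 nuclear against 139 and 275 cytoplasmic reads (log2 -2.03 ± 0.71, adjusted p = 0.0432, edgeR). With TMM scaling no host passed, and without either nuclear library none passed on the cytoplasmic side and 25 or 28 did on the nuclear side.

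Lists of host genes by function were described by counts against these shares. The limit on hosts that reached the minimum of reads through a single fraction holds here too. Of 31 chromatin regulators tested, 4 had a higher nuclear share and 3 a higher cytoplasmic one. The median log2 difference was -5.15 against -5.37 for all hosts, but both are values of hosts not listed in the nucleus. Such values depend on edgeR's prior count, so these medians do not compare nuclear shares. The 4 with a higher nuclear share were Hdac9, with 6 and 7 nuclear against 4 and 5 cytoplasmic reads, and Asxl1 with 5 and 5 against 4 and 9. The others were Asxl2 with 12 and 13 against 31 and 62, and Ep400 with 9 and 4 against 17 and 14. The list as a whole took 3.46% and 3.22% of nuclear and 1.96% and 2.36% of cytoplasmic exon-edge reads. Genes of circRNA biogenesis and export took 1.03% and 1.08% against 0.404% and 0.49%. Of 11 tested, 2 had a higher nuclear share and none a higher cytoplasmic one. They were Mbnl1, a splicing regulator gene, with 3 and 5 against 5 and 3 reads, and Dhx9, a helicase gene that opposes circle formation at inverted repeats, with 9 and 5 against 23 and 27.

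The remaining lists were small. Higher nuclear and higher cytoplasmic shares were found for 2 and 1 of 18 well-studied circRNA hosts, 2 and 1 of 24 cytoskeletal genes, 2 and 1 of 18 genes of matrix and adhesion, and 1 and 1 of 13 genes of the TGF-beta and BMP pathway. Bmpr2, a BMP receptor gene, had 6 and 4 nuclear against 1 and 2 cytoplasmic reads. Fn1 had 7 and 5 against 9 and 14. No gene of the imaged hosts (4 tested) or of the NFI and HIPK families (5 tested) passed. Of 3 long noncoding RNAs tested, Gas5 had a higher nuclear share with 7 and 5 against 4 and 19 reads, and Pvt1 a higher cytoplasmic one. The mitochondrial genome had no exon-edge circle, and its 2 nuclear entries were those given above.

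The mRNA of hosts did not separate the fractions. Hosts at 1 CPM or more in KO mRNA-seq gave 99.1% and 99.1% of nuclear and 98.9% and 99.1% of cytoplasmic exon-edge reads. In the same mRNA libraries all 12 fibroblast markers were at 1 CPM or more, with a summed level between 23626 and 26440 over the 3 KO libraries. Of other lists, 4 of 14 neuronal or glial, 1 of 6 germ cell, 1 of 6 blood and 0 of 4 epithelial markers reached that level. The labels' text on RNA extraction speaks of blood. The blood marker at this level was Ptprc, with 1.8, 1.45 and 1.24 CPM in KO, and the T cell gene Cd3e had 0 in all 3 libraries. Xpo4 mRNA had 712, 504 and 687 reads in KO and 657, 614 and 685 in WT. An exon count cannot show a small edit in the coding sequence, so these values check nothing about the label, and the headings within the mRNA files name the other genotype.

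The ratio of nucleus to cytoplasm was finally set against that of WT cells in one model with an interaction of fraction and genotype. Of 9266 circRNAs tested, 0 had a higher and 4 (0.0432%) a lower ratio in KO at an adjusted p under 0.05 (edgeR), while 126 had an unadjusted p under 0.05. TMM gave no call and DESeq2 gave 1, and the direction was not the same in every alternative fit. Of the 228 circRNAs with a higher nuclear share in KO, 222 (97.4%) were also listed in a WT nuclear library, as were 1118 of all 1148 (97.4%). Such a listing can rest on 1 read, and a KO listing itself depended in part on WT. The overlap therefore does not compare nuclear levels. CircAtxn2 had 0 and 1 WT nuclear reads, and circTcf25 had 20 and 19.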

How the data were processed

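For circRNA-seq, adapters were trimmed with cutadapt and circles called with find_circ on mm10 (GRCm38), and the authors deposited whole-number counts of junction reads per circRNA and library, although their methods speak of TPM. For mRNA-seq, the authors deposited counts per gene from HISAT2 and featureCounts (version 2.0.0). No molecular identifiers are named, so counts are not independent molecules, and low nuclear depth limits the precision. Members and lists were chosen with earlier results of these data known. CircRNAs were keyed by chromosome, start and end, absent ones entered as 0, and matched to exons of GENCODE M21 on GRCm38. Exon numbers are those of a single transcript per circle, preferred by annotation tag and then by spliced length. In other transcripts of the gene they may differ. Nucleus and cytoplasm were compared with the quasi-likelihood test of edgeR 4.0.16 under R 4.3.3, with the library's total of junction reads as scale, at least 10 reads over the libraries of a fit, and a Benjamini-Hochberg adjusted p under 0.05. The total was used in place of TMM because TMM centres on circles listed in both fractions. Fold changes of circRNAs absent from a fraction depend on edgeR's prior count and are no bounds. DESeq2 (version 1.42.0), other scalings, filters and leaving out each library were alternatives. The edgeR fit was tested on simulated data. There the changes were placed only in the better read circRNAs and the spread was fixed, so this is no support for single calls. Features of libraries were compared by two-sided exact permutation tests. The sequences are those of RefSeq's GRCm38 genome. The circRNAs named are the most read one of each imaged host, the 10 with the smallest p on each side and the 10 with the highest share of each fraction, and hosts by number of circles and by list. The circRNAs listed in both fractions, the off-edge examples and the hosts with the smallest p were chosen after their values were seen. Some genes that these rules name are not reported here.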

Additional observations from a re-analysis of the deposited data

Results flagged for a closer look

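A lower ratio of nucleus to cytoplasm in KO than in WT was found for 4 circRNAs by edgeR's interaction term (log2 of the KO ratio over the WT ratio, adjusted p under 0.05), and all 4 rested on WT cytoplasmic libraries with 0 to 2 reads. CircBnc2, exons 2 and 3 of a zinc finger gene expressed in fibroblasts, gave -7.23, with KO reads of 4 and 11 in the nucleus and 139 and 256 in the cytoplasm, and WT reads of 5 and 6 against 2 and 2. In whole-cell RNA the order of the genotypes was the other way round, with 44 and 43 reads in KO and 220 and 183 in WT. CircSpata5 gave -6.94, with 15 and 15 cytoplasmic reads in KO and 0 and 1 in WT. The junction at chr1:173912814-173977437, counterpart of the Mndal entry with ends in different genes or outside genes, gave -7.02. It had 7 and 24 cytoplasmic reads in KO and 0 and 0 in WT, but 25 and 14 whole-cell reads in KO and 21 and 22 in WT. CircMyo10, from the gene of a filopodial myosin, gave -5.87, with 8 and 11 cytoplasmic reads in KO and 1 and 0 in WT. With TMM none of the 4 passed. The cause was not tested.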

How the results depend on the processing

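The counts of calls moved with the scale, the filter, the tool and single libraries. Where 1 library of a fraction was left out, the other was assumed to vary like the remaining pair. The 228 circRNAs with a higher nuclear share became 101 with DESeq2's size factors in edgeR, 58 without scaling, 763 without a filter, 51 at 20 reads or more and 98 with DESeq2, and ranged from 19 to 313 when each library was left out in turn, the lowest being without nuclear replicate 1 (19) or 2 (23). The 8 with a higher cytoplasmic share became 3821 with TMM, 184 with DESeq2's size factors in edgeR, 3 with the exon-edge total, 2647 without scaling, 130 with DESeq2, 1 with exon-edge circRNAs alone, 185 with an unadjusted p and a log2 beyond 0.3, and 0 with circRNAs listed in both fractions (chosen after seeing the data), and 0 to 123 when each library was left out. Same-numbered libraries did not deviate together (r = -0.0243 over 462 circRNAs). With the replicate block, 225 circRNAs had a higher nuclear and 0 a higher cytoplasmic share, 193 and 388 hosts did so, and 9 circRNAs differed in ratio between genotypes, 4 with a higher and 5 with a lower ratio in KO.

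For hosts, the 135 with a higher nuclear share became 0 with TMM, 206 with the exon-edge total and 40 with DESeq2, and 25 to 200 when a library was left out. The 155 with a higher cytoplasmic share became 0 with TMM, 54 with the exon-edge total, 60 without a filter and 356 with DESeq2, and 0 to 569 when a library was left out. The 4 circRNAs whose ratio differed between genotypes became 0 with TMM, 2 without a filter, 1 with DESeq2, and 0 to 17 when a library was left out. Counts given as 0 are at an adjusted p under 0.05, and the interaction with TMM had 115 at an unadjusted p under 0.05. When only circRNAs listed in both fractions were summed, the single-exon difference of nucleus minus cytoplasm turned from 4.83 to -11.4 percentage points and the difference in median length from -56.0 to 16.5 nt. The share of reads from expressed hosts, 0.0646 points higher in the nucleus, turned to -1.22 at 10 CPM and ranged from -0.0472 to 0.176 when a library was left out. The exon-edge share kept its direction under all alternatives run, with differences from -39.6 to -22.9 points, as did the GC content (0.111 to 1.45 points). The causes were not tested.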
